A study of Sus scrofa with 36 samples.

Results

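Genes of growth factor, Wnt, BMP and Notch signalling were followed in the hearts of neonatal pigs. They were picked by name alone: protein coding genes called WLS, or whose symbol begins with WNT, FZD, LRP and a number, FGF, IGF, BMP, TGFBR, ACVR, EPH, EFN, NOTCH, DLL, JAG, PDGF, VEGF or FLT, without IGF2 and IGF2R. Of the 9815 genes in the deposited table, 39 carried such a name, and 30 of these reached 10 counts or more in 3 or more of the 12 libraries. The 30 were among 5526 genes tested. The other 9 (IGFBPL1, WNT7A, EPHA6, DLL3, EPHA10, EPHA8, WNT8A, WNT3A and FGF22) were below that filter and were not tested.

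The study sequenced RNA of Yorkshire pig hearts to follow expression over the first month of life, with ages written as P and the day after birth (P1, P3, P7 and P28). Gene counts were analysed for the 12 libraries that CD Genomics made from total RNA, 3 at each age, each from another pig. The pigs were fed normally and untreated, and the hearts were frozen after isolation. The paper used males and females at each age, but which of these libraries came from which sex is not known here. Age was the only difference between the groups that the labels name. The libraries are called here by age and by the number 4, 5 or 6 in the column names, which the labels do not link to a pig.

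Signals from outside a cell reach it through families of secreted ligands and membrane receptors. Wnt proteins are carried to the cell surface by WLS before they are secreted, BMP and TGF-beta ligands bind paired serine/threonine kinase receptors, fibroblast and insulin-like growth factors bind tyrosine kinase receptors, and Eph receptors and Notch read ligands that sit on neighbouring cells. In the heart these pathways are known from development, in which they pattern the valves, the epicardium and the coronary vessels. The names used for the choice do not always follow function. IGF2BP2 is an RNA-binding protein and EPHX3 an epoxide hydrolase, FGF12 is an intracellular regulator of sodium channels, and the 4 LRP genes found (LRP3, LRP4, LRP8 and LRP11) do not include the Wnt co-receptors LRP5 and LRP6.

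The libraries held between 8887176 and 14883849 counts, of which between 29939 and 44931 fell on the 30 genes. Signal recognition particle RNA took 7.09% to 19.7% of the counts in a library, 12.9% to 19.5% at P1 and 7.88% to 12.0% at P28, and removing it left 9 of the 30 genes called between P1 and P28, as with it. The P3 libraries were less alike (median Spearman rho with the other libraries of the age 0.970 to 0.978, across genes) than those of P1, P7 and P28 (0.985 to 0.992), and library P3-5 was the least like its group. Heart muscle genes were present throughout, with a summed level of 75581 to 106772 CPM over 11 cardiomyocyte markers, where CPM is a gene's count scaled to a common library total. All levels are CPM corrected by TMM scaling factors, and a log2 fold change is positive where the later age was higher.

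From P1 to P28, the genes with the lowest p-values among the 30 were WLS, EPHB2 and EPHA3, which fell, and LRP8, which rose. WLS, the carrier of Wnt ligands, stood 2.31-fold lower at P28, the ephrin receptors EPHB2 and EPHA3 stood 4.56-fold and 4.55-fold lower, and LRP8, a receptor for reelin and apolipoprotein E, stood 3.07-fold higher. In all, 9 of the 30 genes passed an adjusted p under 0.05 in edgeR's quasi-likelihood test between P1 and P28. Of these, 3 were higher at P28 (LRP8, ACVR2B and DLL1), against 7.38% of all genes tested, and 6 were lower (WLS, EPHB2, EPHA3, IGF2BP2, EPHA2 and TGFBR2), against 7.93%. The median log2 fold change of the 30 was -0.19, against 0.00 over all genes tested, and 22 of the 30 values were negative. All 3 P28 libraries lay above all 3 P1 libraries for 4 of the genes (22.5% of all genes tested) and below them for 10 (21.9%).

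Hearts were measured whole. In such bulk samples, fewer cells of a type and less RNA per cell cannot be told apart.

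Between P7 and P28, 10 of the 30 genes were called, 1 higher (FGF1, against 8.34% of all genes) and 9 lower at P28 (WLS, EPHB2, LRP3, EPHB1, EPHA3, BMP4, FLT4, TGFBR2 and WNT5A, against 10.5%). The median of the 30 was -0.28, against 0.01 over all genes. The comparisons of P1 with P3 and with P7 held fewer calls. Between P1 and P7, 3 genes were higher (LRP8, FLT4 and EPHB1, against 1.47% of all genes) and 1 was lower (FGF1, against 0.543%). Between P1 and P3, LRP8 was the 1 gene called higher (against 0.0181%) and 0 of the 30 were called lower by edgeR (against 0.0362%), although 10 of the 30 had an unadjusted p of 0.05 or less, as had 840 of all 5526 genes tested, and DESeq2 called 5 of the 30, among them WLS as lower, and 2.21% of all genes. These comparisons share the P1, P7 or P28 libraries and are not independent of each other.

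**Figure D1:**
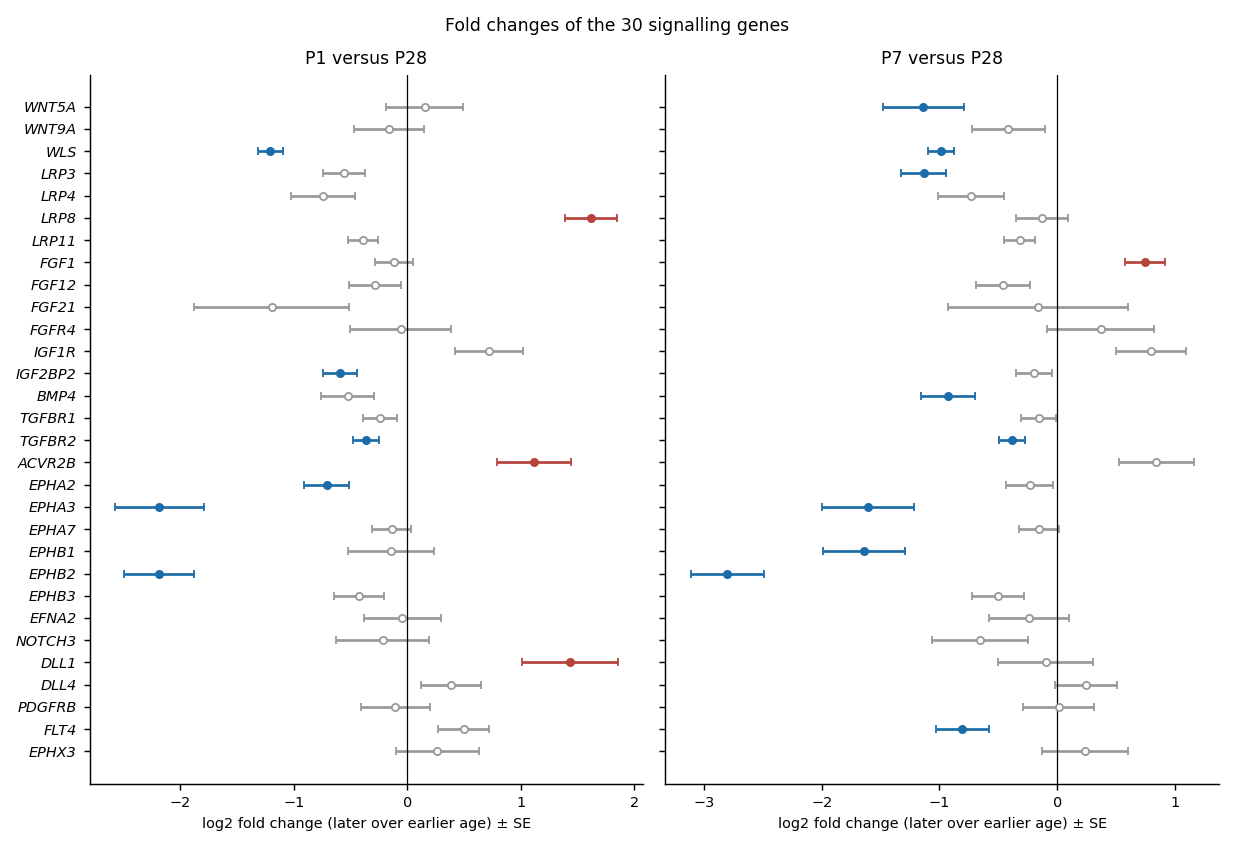
Log2 fold change (later over earlier age) with its standard error for each of the 30 genes between P1 and P28 (left) and between P7 and P28 (right). Filled red points are called higher and filled blue points called lower at an adjusted p under 0.05, open grey points are not called; WLS, EPHB2, EPHA3 and TGFBR2 are blue in both panels, whereas LRP8 is red only in the left one.

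WLS is the membrane protein that escorts lipid-modified Wnt ligands from the endoplasmic reticulum to the cell surface. It was read at 74.9, 69.4 and 74.5 CPM in the P1 libraries, 54.7, 50.2 and 52.6 at P3, 62.5, 61.2 and 63.5 at P7, and 31.2, 31.0 and 32.4 at P28. No 2 ages overlapped, with P28 lowest and P1 highest, and the mean went from 72.9 ± 3.04 CPM at P1 to 31.6 ± 0.750 at P28 (SD, n = 3 each). WLS fell by 1.21 on the log2 scale between P1 and P28 (SE 0.11, adjusted p = 8.51e-05) and fell by 0.98 between P7 and P28 (SE 0.11, adjusted p = 0.000271). Both calls held without each of the 12 libraries in turn. The difference between P1 and P3 was -0.47 (adjusted p = 0.111), below P1 in all 3 libraries but not called by edgeR, whereas DESeq2 called it (0.000807). WLS (ENSSSCG00000003795) lies at chr6:144242656-144555880 in the file's coordinates.

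The Wnt ligands WNT5A and WNT9A were also measured. WNT5A, a ligand of the beta-catenin independent branch, had no call between P1 and P28 and is described here because it was called between P7 and P28, a choice made after its values were seen. Its levels were 10.97, 31.9 and 26.2 CPM at P1, 33.2, 34.9 and 22.6 at P3, 36.7, 76.4 and 55.5 at P7, and 26.8, 24.8 and 25.2 at P28. P7 lay above P1 and P28 in all 3 libraries, and P28 lay within the range of P1. The P1 to P7 difference was 1.29 (adjusted p = 0.0674), not called by edgeR but called by DESeq2 (0.00680), by limma voom (0.0493) and with no filter on low counts (0.0301). The P7 to P28 difference was -1.14 (SE 0.34, adjusted p = 0.0351), and it was no longer called without P7-5 (adjusted p = 0.145), P7-6 (0.0762), P28-4 (0.0796), P28-5 (0.0988) or P28-6 (0.0944). WNT9A was called at no age by edgeR. WNT7A, WNT8A and WNT3A had at most 5 counts in any library.

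LRP8 was the 1 gene of the 30 called between P1 and P3. Its levels were 20.5, 23.3 and 16.2 CPM at P1, 53.8, 64.6 and 82.8 at P3, 64.5, 68.7 and 68.9 at P7, and 41.6, 66.2 and 76.8 at P28. Every later library lay above every P1 library, and the 3 later ages overlapped one another. LRP8 rose by 1.75 on the log2 scale between P1 and P3 (SE 0.23, adjusted p = 0.0127), stood 1.75 above P1 at P7 (adjusted p = 0.00269) and 1.62 above it at P28 (SE 0.23, adjusted p = 0.000917). From P7 to P28 the difference was -0.13 (adjusted p = 0.718). The call between P1 and P3 was lost when any of the P1 libraries was left out (adjusted p = 0.0974 without P1-4, 0.0509 without P1-5 and 0.0699 without P1-6), and the calls at P7 and P28 were kept without each of the 12 libraries in turn. LRP8 (ENSSSCG00000003848) lies at chr6:158905460-158982873.

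LRP3, a low-density lipoprotein receptor-related protein, had another course. It was read at 59.3, 50.8 and 53.5 CPM at P1, 97.3, 134 and 103 at P3, 76.4, 90.8 and 76.8 at P7, and 26.7, 43.1 and 41.4 at P28. No 2 ages overlapped, with the highest level at P3 and the lowest at P28. LRP3 fell by 1.13 on the log2 scale between P7 and P28 (SE 0.19, adjusted p = 0.00179), and this call held without each library in turn. The differences from P1 were 1.03 at P3 (adjusted p = 0.0687) and -0.56 at P28 (adjusted p = 0.0616), neither of them called by edgeR. The P3 difference was called by DESeq2 (0.000223), with no filter (0.0192) and without P28-4 (0.0232), the P28 difference by DESeq2 (0.0356), with the replicate number as a block (0.0492) and without P3-5 (0.0295), and the P7 difference from P1 with only those 2 ages in the fit (0.0220). LRP11 stood at 76.4 ± 3.43 CPM at P1 and 58.2 ± 4.83 at P28 (SD, n = 3), a difference of -0.39 (adjusted p = 0.0654), but it overlaps PCMT1, which was read at 200 CPM, and reads of the pair may not be separable.

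**Figure D2:**
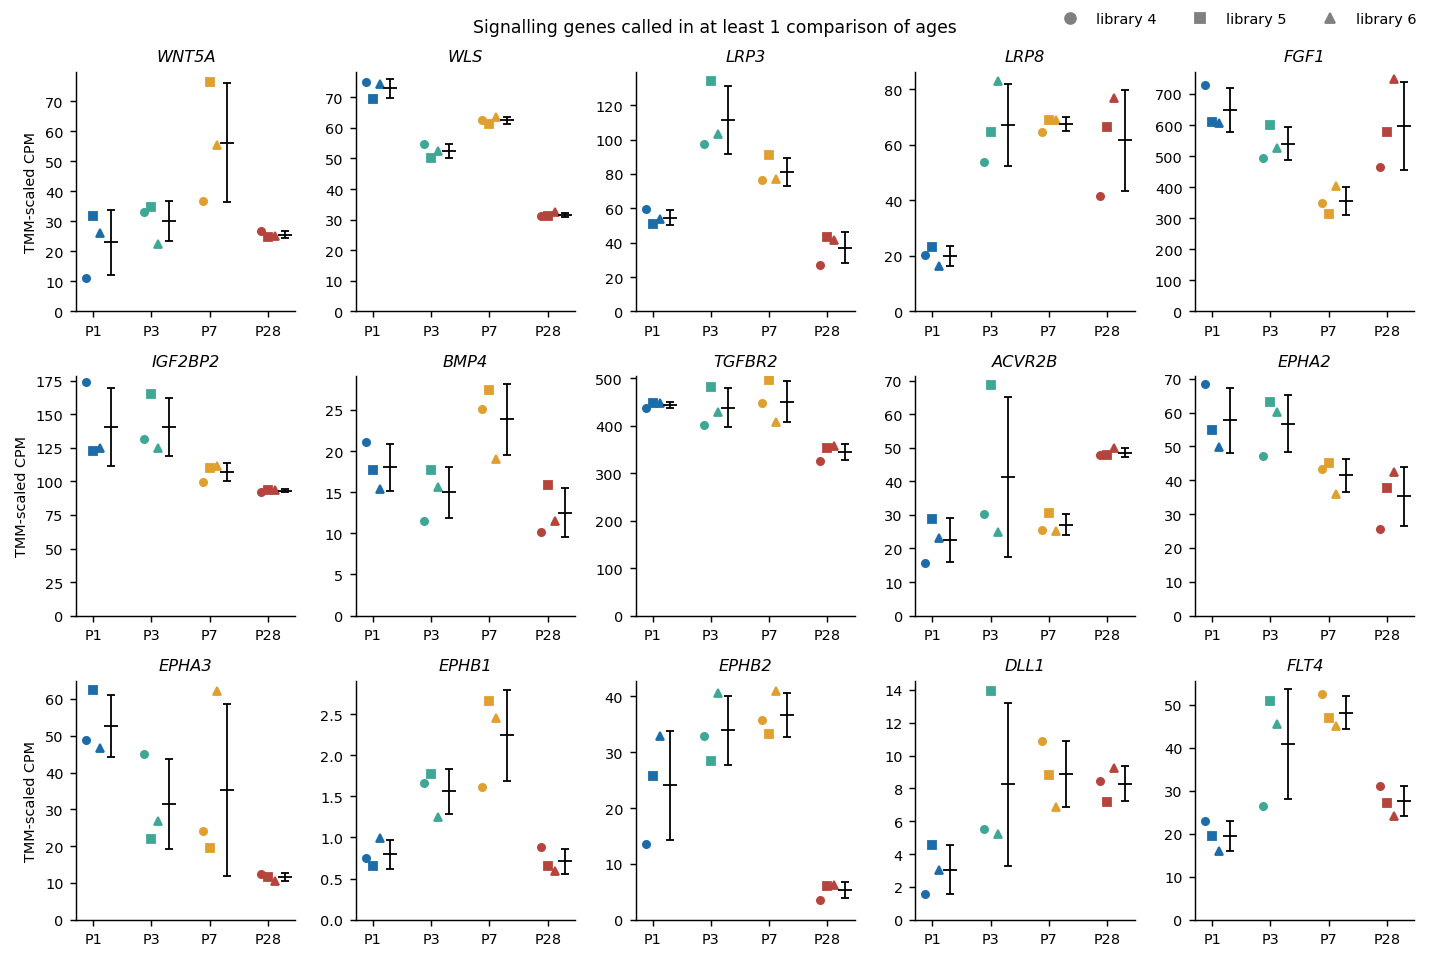
TMM-scaled CPM of the 15 genes called in at least 1 comparison of ages, by age. Each point is a library (circle 4, square 5, triangle 6), the black bar is the mean with its SD (n = 3), and each axis starts at 0; the P28 points of WLS, EPHB2 and EPHA3 lie below all other ages, and the P1 points of LRP8 lie below all others.

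FGF1, a heparin-binding ligand of the fibroblast growth factor receptors, was lowest at P7. Its levels were 729, 610 and 605 CPM at P1, 495, 599 and 527 at P3, 349, 313 and 404 at P7, and 466, 578 and 748 at P28. P7 lay below every library of the other ages, and P1 and P28 overlapped. FGF1 fell by 0.87 on the log2 scale between P1 and P7 (SE 0.17, adjusted p = 0.0297) and rose by 0.75 between P7 and P28 (SE 0.17, adjusted p = 0.00961), with -0.12 between P1 and P28 (adjusted p = 0.682). The fall to P7 was lost without P1-4 (adjusted p = 0.105), P1-5 (0.0619), P1-6 (0.0717), P7-4 (0.0779), P7-5 (0.145) or P7-6 (0.0515), and the rise after P7 without P7-5 (0.058). FGFR4, the 1 FGF receptor in the table, stood at 6.78 ± 2.14 CPM at P1 and 6.53 ± 2.42 at P28 (SD, n = 3; adjusted p = 0.944).

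IGF1R, the receptor of insulin-like growth factor 1, was read at 650, 405 and 357 CPM at P1, 376, 712 and 353 at P3, 448, 512 and 384 at P7, and 1035, 654 and 639 at P28. All P28 libraries lay above all P7 libraries, and P28 overlapped P1. The difference between P1 and P28 was 0.72 (SE 0.30, adjusted p = 0.119) and that between P7 and P28 was 0.79 (adjusted p = 0.0800), and neither was called by edgeR. The second was called by DESeq2 (0.0450), with only the 2 ages in the fit (0.0200) and without P3-5 (0.0301). With single libraries left out, the difference between P1 and P28 ran from 0.45 without P28-4 (adjusted p = 0.389) to 1.02 without P1-4 (0.0528), and the adjusted p was under 0.05 only without P3-5 (0.0477), which enters the shared estimate of the spread. IGF2BP2, which binds mRNAs, fell by 0.59 between P1 and P28 (SE 0.15, adjusted p = 0.0217). It stood at 174, 123 and 125 CPM at P1 and at 92.3, 93.8 and 93.6 at P28, so that the P28 libraries were close together and below P1. Its call was lost without P1-4 (adjusted p = 0.0851), P28-4 (0.0627), P28-5 (0.0597) or P28-6 (0.0662). IGF2BP2 overlaps 2 pseudogenes, 1 of which passed the filter and went from 48.3 ± 5.16 CPM at P1 to 34.5 ± 3.25 at P28 (SD, n = 3), a difference of -0.49 (adjusted p = 0.0741), so reads of the pair may not be separable.

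Among ligands and receptors of the TGF-beta superfamily, the type 2 receptor of TGF-beta was lower at P28 and an activin type 2 receptor higher. TGFBR2 stood at 436, 447 and 448 CPM at P1, 401, 482 and 430 at P3, 447, 495 and 409 at P7, and 326, 352 and 357 at P28. P28 lay below every other library, and the 3 earlier ages overlapped. TGFBR2 fell by 0.36 on the log2 scale between P1 and P28 (SE 0.11, adjusted p = 0.0462) and fell by 0.38 between P7 and P28 (SE 0.11, adjusted p = 0.0322). Both calls were close to the threshold. The first was lost without any 1 of the P1 libraries (adjusted p = 0.0849 without P1-4, 0.115 without P1-5, 0.131 without P1-6), of the P7 libraries (0.0726, 0.0535 and 0.0550 without P7-4, P7-5 and P7-6) or of the P28 libraries (0.133, 0.102 and 0.0963 without P28-4, P28-5 and P28-6). The second was lost without P1-5 (0.0529), P1-6 (0.0508), P7-4 (0.0854), P7-5 (0.125), P28-4 (0.108), P28-5 (0.0852) or P28-6 (0.0684).

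ACVR2B, a receptor for activins and myostatin, was read at 15.6, 28.7 and 23.0 CPM at P1, 30.4, 68.7 and 24.8 at P3, 25.4, 30.7 and 25.1 at P7, and 47.9, 47.8 and 50.1 at P28. P28 lay above P1 and P7, whereas P3-5 exceeded all other libraries. ACVR2B rose by 1.12 between P1 and P28 (SE 0.32, adjusted p = 0.0356), and the call was lost without P1-4 (0.112), P1-6 (0.0949), P28-4 (0.0779), P28-5 (0.0738) or P28-6 (0.0890). Between P7 and P28 ACVR2B was not called by edgeR, but it was called by DESeq2 (0.0475), with only the 2 ages in the fit (0.00190), with the block (0.0415) and without P3-5 (0.00883). BMP4, a ligand that acts in the formation of the heart's cushions and outflow tract, had 25.1, 27.4 and 19.1 CPM at P7 and 10.1, 15.9 and 11.5 at P28. P7 lay above P28 in all libraries, and BMP4 fell by 0.93 between these ages (SE 0.23, adjusted p = 0.0149). The call was lost without P7-4 (0.0504), P7-5 (0.0652), P28-4 (0.0633) or P28-6 (0.0574). Between P1 (18.0 ± 2.84 CPM) and P28 (12.5 ± 3.01, SD, n = 3) the BMP4 difference was -0.53 (adjusted p = 0.140).

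The Eph receptors, which bind ephrins on neighbouring cells, made up 6 of the 30 genes. Between P1 and P28, 3 of them fell (EPHB2, EPHA3 and EPHA2, against 7.93% of all genes), 0 rose in edgeR's test (against 7.38%), and 3 were not called (EPHA7, EPHB1 and EPHB3), with a median log2 fold change of -0.57 over the 6. EPHB2 stood at 13.5, 25.8 and 32.9 CPM at P1, 32.9, 28.4 and 40.6 at P3, 35.8, 33.2 and 41.0 at P7, and 3.61, 6.01 and 6.21 at P28. P28 lay below every other library, and P3 overlapped P1 and P7. EPHB2 fell by 2.19 on the log2 scale between P1 and P28 (SE 0.31, adjusted p = 0.000910) and fell by 2.80 between P7 and P28 (SE 0.31, adjusted p = 0.000271), which was 6.96-fold. Both calls held without each of the 12 libraries. EPHB2 (ENSSSCG00000003527) lies at chr6:80649143-80843567.

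EPHA3, a receptor for which ephrin-A5 is a ligand, was read at 48.9, 62.4 and 46.7 CPM at P1, 45.2, 22.0 and 27.0 at P3, 24.2, 19.5 and 62.2 at P7, and 12.5, 11.7 and 10.4 at P28. P28 lay below all other libraries, and P3 and P7 spread widely, with library P7-6 in the range of P1. EPHA3 fell by 2.19 between P1 and P28 (SE 0.39, adjusted p = 0.00359) and fell by 1.61 between P7 and P28 (SE 0.39, adjusted p = 0.0134). The first call held without each library in turn, and the second was lost without P28-6 (adjusted p = 0.0511). Without P7-6 the difference between P7 and P28 was -0.92 and was still called. EPHA3 (ENSSSCG00000026130) lies at chr13:166591686-166942767. EPHA2, which binds ephrin-A1, stood at 68.5, 54.7 and 49.8 CPM at P1 and 25.5, 37.8 and 42.5 at P28, without overlap. It fell by 0.71 (SE 0.20, adjusted p = 0.0321), a call lost without P1-4 (0.106), P1-5 (0.0639), P28-4 (0.105) or P28-5 (0.0619).

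EPHB1 showed a peak in the first week at a low level. It had 0.746, 0.648 and 0.989 CPM at P1, 1.66, 1.77 and 1.25 at P3, 1.62, 2.66 and 2.45 at P7, and 0.883, 0.659 and 0.591 at P28, from 6 to 40 counts in a library. P3 and P7 lay above P1 and P28, and P1 overlapped P28. EPHB1 rose by 1.50 on the log2 scale between P1 and P7 (SE 0.34, adjusted p = 0.0442) and fell by 1.64 between P7 and P28 (SE 0.35, adjusted p = 0.00671). The fall held without each library in turn. The rise was lost without P1-4 (0.132), P1-5 (0.134), P1-6 (0.0940), P7-4 (0.0604), P7-5 (0.172), P7-6 (0.127), P28-4 (0.0508), P28-5 (0.0604) or P28-6 (0.0591). EPHA7, with the most counts of the 6, had 154 ± 17.4 CPM at P1 and 139.5 ± 18.7 at P28 (SD, n = 3; adjusted p = 0.631). The ephrin EFNA2 was read at 3.88 ± 1.17 and 3.75 ± 1.34 CPM at these ages and overlaps DAZAP1, at 438 CPM, so its reads may not be its own.

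In the Notch pathway the receptor NOTCH3 and the ligands DLL1 and DLL4 passed the filter. DLL1, one of the ligands, stood at 1.57, 4.54 and 3.05 CPM at P1, 5.54, 13.9 and 5.24 at P3, 10.9, 8.84 and 6.87 at P7, and 8.43, 7.16 and 9.26 at P28. All later libraries lay above P1, and the later ages overlapped. DLL1 rose by 1.43 on the log2 scale between P1 and P28 (SE 0.42, adjusted p = 0.0391), from 3.05 ± 1.48 to 8.28 ± 1.06 CPM (SD, n = 3), and the differences from P1 were 1.41 at P3 (adjusted p = 0.196) and 1.53 at P7 (adjusted p = 0.0732), of which DESeq2 called both (0.0463 and 0.00928) and the fits with no filter (0.0454) and without P3-5 (0.0287) the second. The P28 call was lost without P1-4 (0.111), P1-6 (0.107), P7-4 (0.0505), P7-5 (0.0542), P28-4 (0.0877), P28-5 (0.0637) or P28-6 (0.105).

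NOTCH3, the Notch receptor of vascular smooth muscle and pericytes, was read at 169, 197 and 155 CPM at P1, 154, 590 and 248 at P3, 208, 302 and 196 at P7, and 87.1, 157 and 204 at P28. The ages overlapped and edgeR called no comparison, with a difference of -0.22 between P1 and P28 (SE 0.41, adjusted p = 0.761). PDGFRB, the platelet-derived growth factor receptor of the same mural cells and of fibroblasts, had 230, 222 and 194 CPM at P1, 271, 596 and 318 at P3, 185, 249 and 161 at P7, and 122, 224 and 254 at P28. Its difference between P1 and P28 was -0.11 (SE 0.30, adjusted p = 0.844). For both genes the highest value was in P3-5 and the lowest in P28-4. None of the 13 mural cell markers of the list was among the genes analysed, so the level of these cells was not measured.

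FLT4, the receptor of the lymphatic growth factors VEGF-C and VEGF-D, rose in the first week and fell after it. Its levels were 23.0, 19.6 and 16.1 CPM at P1, 26.4, 50.8 and 45.5 at P3, 52.5, 47.0 and 45.1 at P7, and 31.2, 27.3 and 24.2 at P28. P1 lay below all other libraries, and P7 lay above P28. The difference between P1 and P3 was not called by edgeR but was called by DESeq2 (0.00240), with no filter (0.0403) and without P3-4 (0.0244). FLT4 rose by 1.30 on the log2 scale between P1 and P7 (SE 0.22, adjusted p = 0.0151) and fell by 0.80 between P7 and P28 (SE 0.22, adjusted p = 0.0244), and the difference left between P1 and P28 was 0.50 (adjusted p = 0.154). The rise was lost without P1-5 (0.0641), P1-6 (0.0717), P7-4 (0.0563), P7-5 (0.0604) or P7-6 (0.0503), and the fall without P7-4 (0.0822), P7-5 (0.0621), P7-6 (0.0508), P28-5 (0.0781) or P28-6 (0.0908). Of 5 lymphatic endothelial markers 2 were measured, with a summed level of 87.1 to 105 CPM at P1, 94.0 to 116 at P7 and 64.4 to 76.2 at P28. EdgeR called neither between P1 and P28, where DESeq2 called PDPN lower (0.0338), as did the fits with no filter (0.0463), with the block (0.0364) and without P3-5 (0.0331) or P28-4 (0.0357), whereas between P7 and P28, where FLT4 fell, PDPN, which is on the fibroblast list too, fell by 1.14 (adjusted p = 0.0179), a call lost without P7-4 (0.0535), P7-5 (0.0661), P28-5 (0.0691) or P28-6 (0.0726). In the same comparison edgeR called 2 of 8 endothelial markers lower, TIE1 by 0.71 (adjusted p = 0.0236) and ERG by 0.50 (adjusted p = 0.0357). TEK was called higher by DESeq2 (0.0422), with only the 2 ages in the fit (0.0234) and without P3-4 (0.0232) or P3-5 (0.0322). With only the 2 ages, ENG (0.0217), PLVAP (0.0233) and ADGRL4 (0.0204) were called lower. TIE1 lost its call without P7-4, P7-5 or any P28 library (0.0528 to 0.0909) and ERG without P1-5, P7-4, P7-5 or any P28 library (0.0522 to 0.141). Their part in the course of FLT4 was not tested.

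The remaining genes that passed the filter (WNT9A, LRP4, FGF12, FGF21, TGFBR1, EPHB3, DLL4 and EPHX3) were called in none of the 4 comparisons by edgeR with all libraries. At an unadjusted p under 0.05 were LRP4, a receptor for agrin, between P1 and P28 and between P7 and P28, TGFBR1, the type 1 receptor of TGF-beta, between P1 and P3, and EPHB3 between P7 and P28. LRP4 stood at 37.6 ± 13.5 CPM at P1, 37.3 ± 7.28 at P7 and 22.4 ± 2.03 at P28 (SD, n = 3), and TGFBR1 at 142 ± 10.7 CPM at P1 and 101 ± 22.2 at P3. LRP4 was called without P1-4 between P1 and P28 (0.0294) and between P7 and P28 (0.0480), and in the latter also with only the 2 ages in the fit (0.0115), and TGFBR1 was called lower at P28 than at P1 without P3-5 (0.0440). DLL4, the Notch ligand of endothelial cells, stood at 37.0 ± 9.23 CPM at P1 and 48.2 ± 10.8 at P28, with overlap between the ages. FGF21, a hormone-like FGF, was near the limit of detection, with 2 to 13 counts in a library.

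Across the 30 genes the age with the highest mean was P1 for 6, P3 for 10, P7 for 10 and P28 for 4, and the lowest mean was at P28 for 17. Single libraries weighed on this pattern. P3-5 was the highest of the 12 libraries for 9 genes and P28-4 the lowest for 11. The counts by age and by library were not made over all genes tested, so they may not be particular to the 30. Without P3-5 the median difference between P1 and P3 went from 0.27 (20 of 30 positive) to 0.03 (16 of 30), and the count of genes called between P1 and P28 went from 9 to 13, while the share of all genes called went from 15.3% to 25.6%. Without P28-4, 4 genes were called between P1 and P28, beside 9.41% of all genes, and 13 of the 30 differences were positive in place of 8. The 4 were WLS, EPHB2, EPHA3 and LRP8.

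**Figure D3:**
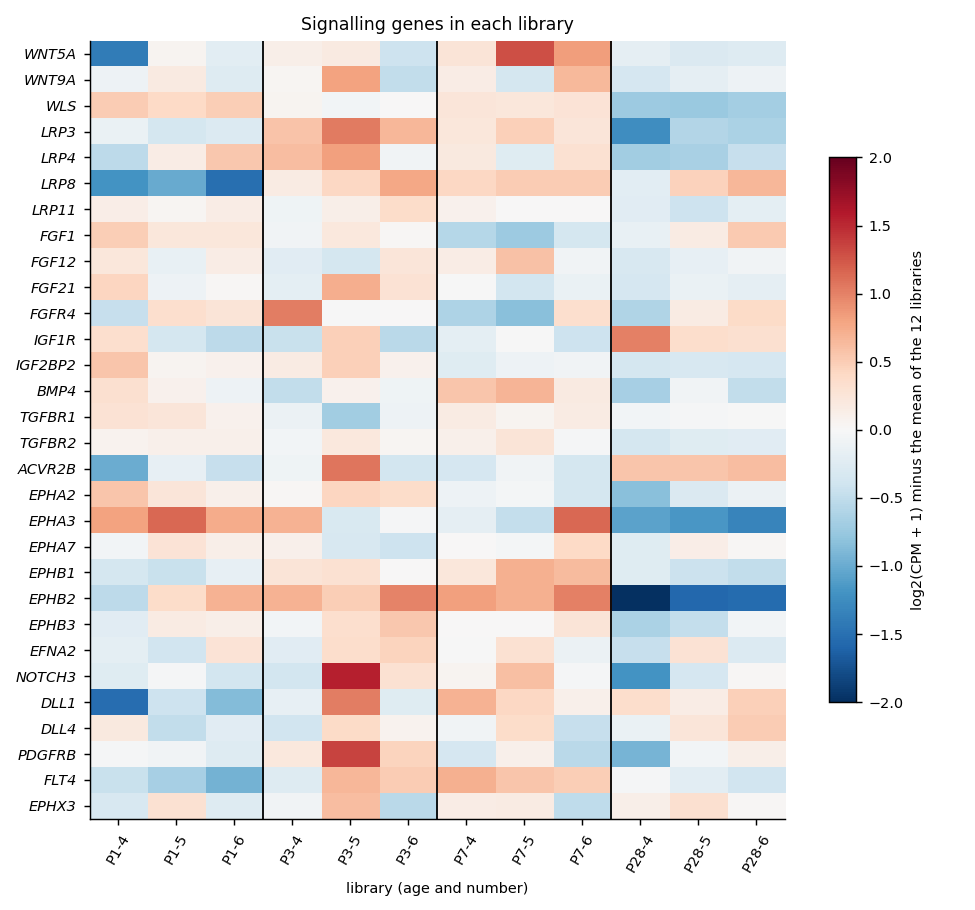
Levels of the 30 genes in each of the 12 libraries, as log2(CPM + 1) minus the gene's mean over the libraries, with colours limited to -2 to 2; the lowest value, -2.18 for EPHB2 in P28-4, lies past the scale. Vertical lines divide the ages; NOTCH3 and PDGFRB are darkest red in P3-5, whereas WLS and EPHB2 are blue in all 3 P28 libraries.

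Levels were divided by gene length for a rough comparison between genes. Reads of overlapping genes, as for LRP11, IGF2BP2 and EFNA2, were not separated on this scale. FGF1 had the highest mean of the 30, with 117 CPM per kilobase, followed by IGF1R with 85.7, TGFBR2 with 61.4, PDGFRB with 41.0 and NOTCH3 with 27.5. The lowest were DLL1 with 1.41 and EPHB1 and FGF21, both under that. On this scale EPHB2 went from 5.66 CPM per kilobase at P1 to 1.24 at P28, EPHA3 from 8.11 to 1.78, and LRP8 from 5.04 to 15.5. These 3 genes with large fold changes stood in the middle of the range of levels.

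**Figure D4:**
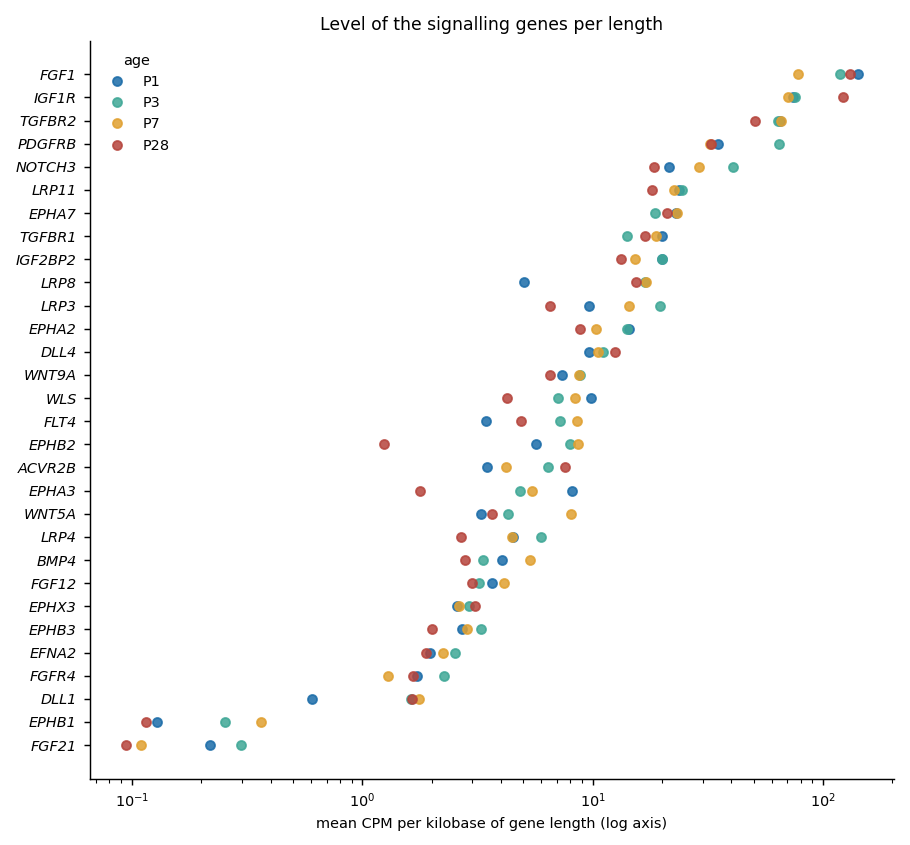
Mean level of each of the 30 genes at each age, in CPM per kilobase of gene length on a log axis, ordered by the mean over all libraries. The levels run from FGF21 to FGF1, at 117 CPM per kilobase; the ages of EPHB2, EPHA3 and LRP8 lie apart, whereas those of EPHA7 lie close together.

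Other genes of the same pathways, from lists of inhibitors, transducers and targets, were read in the same fit. Of 72 such genes tested, 4 rose and 11 fell between P1 and P28, against 7.38% and 7.93% of all genes tested. In the Wnt list 0 of 16 rose and 3 fell in edgeR's test, with a median of -0.28. In other fits ROR1 (without P1-4, 0.0382) and DVL1 (without P3-5, 0.0453) were called higher. With only the 2 ages, DAAM1 (0.0313) and CSNK1A1 (0.0441) were called lower. NKD1, an inhibitor that Wnt signalling itself induces, went from 5.92 ± 0.962 to 2.75 ± 0.337 CPM (SD, n = 3), which was -1.10 on the log2 scale (SE 0.28, adjusted p = 0.0192). CELSR3, an atypical cadherin of planar cell polarity, fell by 1.98 (adjusted p = 0.0297), from 1.16 ± 0.440 to 0.282 ± 0.106 CPM. CTNNB1, which encodes beta-catenin, fell by 0.47 (SE 0.14, adjusted p = 0.0414), from 2130 ± 276 to 1537 ± 76.9 CPM. Of the 12 fits without a library, NKD1 lost its call without P1-6 (adjusted p = 0.0763) or P28-5 (0.0662). CELSR3 lost it without P1-4, P1-6 or any P28 library (0.0506 to 0.115) and CTNNB1 without P1-5, P1-6 or any P7 or P28 library (0.0524 to 0.155). Between P7 and P28, 2 of the 16 rose (DVL1 and PRICKLE2) and 1 fell (NKD1), against 8.34% and 10.5% of all genes. DVL1 lost this call without P7-6 (0.0512) and PRICKLE2 without P7-5 (0.0640), P7-6 (0.0568) or P28-4 (0.0621).

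In the BMP and TGF-beta list 1 of 20 rose and 4 fell, with a median of -0.03. The genes with the smallest p were FSTL1, a secreted follistatin-like glycoprotein, and SMAD7 and ID3, an inhibitor and a target of the pathway. FSTL1 fell by 1.21 (SE 0.13, adjusted p = 0.000316), from 2064 ± 20.7 CPM at P1 to 894 ± 66.4 at P28 (SD, n = 3). SMAD7 fell by 1.26 (SE 0.22, adjusted p = 0.00257), from 87.4 ± 27.6 to 36.5 ± 7.34 CPM, and it stood at 43.5 ± 6.05 CPM at P3. EdgeR did not call the SMAD7 difference between P1 and P3, whereas DESeq2 (0.00240) and the fit with no filter (0.0355) did. ID3 fell by 0.54 (SE 0.13, adjusted p = 0.0128). The other called genes, named after their values were seen, were the inhibitor SMAD6, which fell by 0.91 (adjusted p = 0.0165), and TWSG1, a BMP-binding secreted protein, which rose by 0.53 (adjusted p = 0.0238). The genes of this list that fell thus include inhibitors of the pathway and a target that it induces. These roles do not exclude each other, as an inhibitor may also be induced by its pathway. FSTL1 and SMAD7 kept their calls without each library in turn, whereas ID3 lost its call without P28-4 (0.0505), SMAD6 without P1-4 (0.0582), P28-4 (0.0572) or P28-5 (0.0519), and TWSG1 without any P1 or P28 library (0.0569 to 0.0825). Between P1 and P7, 3 of the 20 were lower, against 0.543% of all genes. They were SMAD7 (adjusted p = 0.0210), ID3 (0.0151) and SMAD6 (0.0442). These calls were lost without P1-4 or any P7 library (SMAD7, 0.0612 to 0.125), without P1-4, P1-5 or any P7 library (ID3, 0.0503 to 0.118), and without any P1 or P7 library or P28-5 (SMAD6, 0.0560 to 0.172).

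Of the 11 other Notch genes, 0 rose and 0 fell between P1 and P28 in edgeR's test (1 of them, HES4, had an unadjusted p under 0.05, and DESeq2 and limma called 0 as well), with a median of -0.02. Between P7 and P28, 1 of the 11 rose (HES4, adjusted p = 0.0148) and 1 fell (HEYL, adjusted p = 0.0287), against 8.34% and 10.5% of all genes. Both encode repressors of the family that Notch induces. HES4 lost its call without P7-6 (0.0639) or P28-6 (0.0649), and HEYL without P7-4, P7-5 or any P28 library (0.0588 to 0.114). In the FGF, IGF and Ras list 2 of 13 rose and 1 fell. IL17RD, an inhibitor of FGF signalling also called Sef, fell by 2.00 on the log2 scale (SE 0.26, adjusted p = 0.000545), from 49.2 ± 3.90 CPM at P1 to 12.3 ± 5.09 at P28 (SD, n = 3). ETV5, a transcription factor that FGF signalling induces, rose by 1.04 (SE 0.31, adjusted p = 0.0413), and AKT2, a kinase of insulin signalling, rose by 0.61 (SE 0.17, adjusted p = 0.0259). In the VEGF, PDGF and Eph list 1 of 12 rose (TEK, which is on the endothelial list too) and 3 fell. PLCG2, a phospholipase downstream of tyrosine kinases, fell by 1.01 (SE 0.16, adjusted p = 0.00153), and ANGPTL2, a secreted angiopoietin-like protein, fell from 64.4 ± 12.7 CPM at P1 to 29.96 ± 4.17 at P28 (SD, n = 3; adjusted p = 0.00248), with 113.5 ± 24.3 at P3. The ANGPTL2 difference between P1 and P3 was not called by edgeR but was called by DESeq2 (0.00703). TIAM1, an activator of Rac, fell by 0.87 (SE 0.20, adjusted p = 0.0131). IL17RD, PLCG2 and ANGPTL2 kept their calls without each library in turn. TIAM1 lost its call without P1-6 (0.0655), AKT2 without any P1 or P28 library (0.0555 to 0.0825), and ETV5 without any P1 or P7 library, P28-5 or P28-6 (0.0515 to 0.149).

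**Figure D5:**
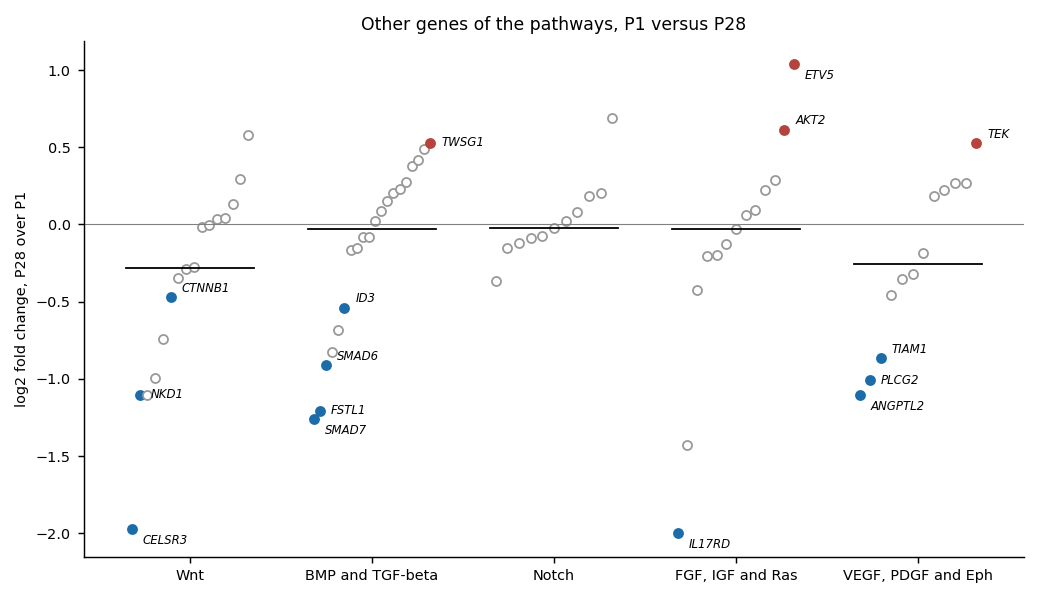
Log2 fold change between P1 and P28 of 72 other genes of 5 pathway lists, each point a gene, ordered within a list. Filled blue and red points are called lower and higher at an adjusted p under 0.05 and named, open points are not called, and black bars are the list medians, which are -0.28 for Wnt and near 0 for Notch.

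Markers of other cell types moved as well, and their part in the changes above was not tested. The first values are for P1 against P28, where 7.38% of all genes tested were called higher and 7.93% lower. Both epicardial markers above the filter fell, of which TBX18 fell by 0.83 (SE 0.15, adjusted p = 0.00390) and ALDH1A2 fell by 0.74 (SE 0.16, adjusted p = 0.00866), while CALB2 was at 0. The summed epicardial level was 140 to 193 CPM at P1, 146 to 168 at P3, 196 to 236 at P7 and 92.1 to 108 at P28. Of 4 fibroblast markers measured, 0 rose and 2 fell (TCF21 fell by 1.05, adjusted p = 0.000678, and CD248 fell by 1.33, adjusted p = 0.0464), but their summed level, most of it GSN, was 1482 to 1682 CPM at P1 and 1455 to 1760 at P28. Of 8 endothelial markers 1 rose (TEK, the angiopoietin receptor, by 0.53, adjusted p = 0.0356) and 0 fell in edgeR's test, but the median of the 8 was -0.32, with values of -0.74 for PLVAP and -0.69 for ENG. With only the 2 ages in the fit or without P3-5, ENG was called lower (0.0194 and 0.0250) and TAL1 higher (0.0275 and 0.0304), and without P1-5 PLVAP was called lower (0.0460). The endothelial list had sums of 1167 to 1544 CPM at P1 and 1083 to 1170 at P28. Of 11 cardiomyocyte markers 3 rose (CKM by 1.54, MYBPC3 by 0.57 and TRDN by 0.73) and 1 fell, ACTC1, which fell by 0.60 and was named after its values were seen. In the macrophage and leukocyte list 1 of 7 rose, C1QB by 0.73 (adjusted p = 0.0493), and 0 fell in edgeR's test, and CSF1R was called higher by DESeq2 (0.0250), by limma voom (0.0462) and in 5 other fits (0.0106 to 0.0445). The Schwann cell marker CDH19, the 1 of its list measured, rose by 1.82 (adjusted p = 0.00806), and the erythroid marker and the adipocyte marker above the filter were not called by edgeR, although the latter, LIPE, was called higher by DESeq2 (0.0346), with only the 2 ages in the fit (0.0253) and without P3-5 (0.00587). PAX7, the marker of skeletal muscle progenitors, was at 0. The calls of TBX18, ALDH1A2, TCF21, CKM and CDH19 held without each library in turn. C1QB lost its call without any library but P3-5 and P28-6 (0.0532 to 0.219) and stood at 0.41 without P28-4, CD248 without any P1 or P28 library, P3-6 or P7-4 (0.0526 to 0.142), TEK without any P1 library, P7-4, P7-6, P28-4 or P28-5 (0.0509 to 0.131), and ACTC1 without any P1 library, P28-4 or P28-6 (0.0605 to 0.118). MYBPC3 lost it without P1-4 (0.0556) or P1-6 (0.0594) and TRDN without P1-4 (0.0562), P28-5 (0.0571) or P28-6 (0.0857).

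More markers were called between P7 and P28, the comparison with 10 of the 30 signalling genes called. In edgeR's test cardiomyocyte markers were higher at P28 for 6 of 11 and lower for 0. Macrophage and leukocyte markers were higher for 4 of 7 and lower for 0. Over all genes, 8.34% were higher and 10.5% lower. ACTC1 was called lower by DESeq2 (0.0259), by limma voom (0.0411), with library sizes alone (0.0254) and without P28-5 (0.0215), and NPPB higher by DESeq2 (0.0348). Fibroblast markers were lower for 3 of 4. The fourth, GSN, which held most of their sum, was at 1143 ± 388 CPM at P7 and 1558 ± 148 at P28 (SD, n = 3). The GSN difference was 0.45 (adjusted p = 0.128), and without P7-6 it was 0.76 and was called (0.00820). The fibroblast sum was 1010 to 1682 CPM at P7 and 1455 to 1760 at P28. The endothelial marker TEK was called higher by DESeq2 (0.0422) and with only the 2 ages in the fit (0.0234), where ENG, PLVAP and ADGRL4 were called lower. By edgeR with all ages, endothelial markers were lower for 2 of 8 and epicardial markers for 2 of 2. The 1 erythroid marker measured, EPB42, fell by 1.77 (adjusted p = 0.0142). With single libraries left out these counts ran from 2 to 7 for cardiomyocyte, 2 to 6 for macrophage and leukocyte, 1 to 3 for fibroblast, 0 to 3 for endothelial and 0 to 1 for erythroid markers, and stayed at 2 for epicardial markers. In the opposite direction 0 to 1 cardiomyocyte, fibroblast or endothelial markers were called in those fits. EPB42 lost its call without P7-5 (adjusted p = 0.0674), and the other losses came from leaving out a P7 or P28 library or, for ERG, CD248, TNNC1 and TRDN, also a P1 library. These fits for the lists were added after the data were seen. The summed macrophage and leukocyte level was 731 to 1012 CPM at P7 and 1219 to 1714 at P28, the summed endothelial level was 1196 to 1562 and 1083 to 1170 CPM, and the summed cardiomyocyte level was 75581 to 85837 and 94021 to 106772 CPM.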

How the data were processed

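Hearts of 3 pigs at each of P1, P3, P7 and P28 were measured by total RNA sequencing at CD Genomics, after removal of ribosomal RNA with a stranded library kit. The authors deposited a table of read counts per gene, whole numbers without normalization. The submitters' processing notes name STAR 2.7.9a, MultiQC 1.11 and the build Sscrofa10.2. The gene counter, its strand setting and any removal of duplicate reads are not given in the sources used here, so reads of overlapping genes cannot be told apart. The positions in the table overlapped RefSeq genes of the same symbol on the later pig assembly for 30 of the 30 genes, and the build of the table is not named in it. The table used here ends within chromosome 2 and holds chromosomes 1, 2, 6 and 13. Its last line, which was incomplete, was left out (1 line). Genes elsewhere, among them most receptors of Wnt, FGF and VEGF, were not analysed here.

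From these counts, edgeR 4.0.16 in R 4.3.3 was used with TMM factors and its quasi-likelihood test, with all 4 ages in one fit, on 5526 genes that reached 10 counts in 3 or more of the 12 libraries. P-values were adjusted by the Benjamini-Hochberg method over all genes tested, and a gene was called at an adjusted p under 0.05. The common dispersion was 0.0446. Libraries held 8887176 to 14883849 counts. All 66 pairs of libraries differed beyond sampling noise (lowest chi-square per degree of freedom 14.4), so none was a copy. The labels do not pair libraries across ages by the numbers 4 to 6. CPM per kilobase used the gene lengths of the table. The test was tested on simulated counts with 200 changed genes. Figures used matplotlib 3.10.9 under Python 3.11.15. Tables of circRNAs and miRNAs and the Novogene libraries were not used here.

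The genes described one by one are those called between P1 and P28, the 5 with the smallest p among those called in each other comparison, and the gene with the most CPM in each family. Of the pathway and marker lists, at most the 3 called genes with the smallest p were named. Outside this rule, and named after their values were seen, are WNT5A, LRP4, TGFBR1, DLL4, DLL3 and FLT3LG, the list genes ROR1, DVL1, DAAM1, CSNK1A1, SMAD6, TWSG1, ACTC1, HES4, HEYL, GSN, PLVAP, ENG, TAL1, CSF1R, LIPE, CALB2 and PAX7, and the list genes described between P1 and P7 or between P7 and P28. The members, the gene lists and the tests were chosen with earlier results of these data known. Alternatives were DESeq2 1.42.0 (size factors or test), limma 3.58.1 (voom), no filter or a stricter one of 6 libraries, no signal recognition particle RNA, only the 2 ages compared, the replicate number as a block, the study's thresholds (unadjusted p of 0.05 and log2 fold change of 0.5), and leaving out each library in turn.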

Additional observations from a re-analysis of the deposited data

How the results depend on the processing

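The counts of called genes among the 30 moved with the settings, as did those over all genes, and each share in this paragraph is of all genes tested. Between P1 and P3 the 1 called gene (0.0543%) became 5 with DESeq2's test (2.21%), 3 with no filter on low counts (0.406%) and 8 at the study's thresholds (10.6%), and 0 to 2 when single libraries were left out (0.0181% to 0.290%). Between P1 and P7 the count was 4 (2.01%), against 7 at the study's thresholds (11.7%) and 1 to 5 with single libraries left out (0.380% to 5.95%). The counts with single libraries left out ran from 4 to 13 between P1 and P28 (8.40% to 25.6%), where all libraries gave 9 (15.3%), from 5 to 12 between P7 and P28 (10.4% to 28.3%), where all libraries gave 10 (18.8%), and from 7 to 22 for the other pathway genes between P1 and P28 (15). The lowest counts between P1 and P28 came without P28-4 or P28-5 and the lowest between P7 and P28 without P7-5 or P28-6. For pathway genes they came without P1-6 or P28-5.

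Over 18 pairs of libraries with the same replicate number, deviations from the age means correlated at -0.23 to 0.36. Of the 12 libraries, 5 were closest to a library of their own number. These values had no reference to be set against, so they do not settle whether the number marks pairs. With the replicate number as a block the counts were 1, 3, 9 and 11 in the order P1 to P3, P1 to P7, P1 to P28 and P7 to P28, beside 0.127%, 1.74%, 14.2% and 18.3% of all genes, and 13 for the other pathway genes. Scaling by library sizes alone, added after seeing the data, moved the median of all genes to 0.13 between P1 and P7 and to -0.12 between P7 and P28, and gave 4, 8 and 10 calls from P1 to P7, P1 to P28 and P7 to P28, beside 3.46%, 13.7% and 17.8% of all genes.

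The log2 fold changes between P1 and P28 that took both signs with single libraries left out belonged to genes without a call: EFNA2 from -0.38 to 0.22, EPHB1 from -0.34 to 0.037, FGF1 from -0.31 to 0.024, FGFR4 from -0.30 to 0.20, NOTCH3 from -0.51 to 0.048, PDGFRB from -0.31 to 0.14 and WNT5A from -0.19 to 0.46. The TGFBR2 call between P1 and P28 was also lost with DESeq2's size factors (adjusted p = 0.0505), no filter (0.0887), the block (0.0523) and library sizes alone (0.103), and that of EPHA2 with only the 2 ages compared (0.0509). The EPHB1 call between P1 and P7 was lost with no filter (0.0542) and with the block (0.0697), and the TGFBR2 call between P7 and P28 with no filter (0.0631). LRP11 was called between P1 and P28 with DESeq2's test (0.0378), with only the 2 ages (0.0313) and without any P3 library (0.0356 to 0.0392), and between P7 and P28 with only the 2 ages (0.0343). Of the other pathway and marker genes, the block ended the calls of CTNNB1 (0.0673) and ETV5 (0.0531), library sizes alone those of CTNNB1 (0.0758) and TEK (0.0583), voom those of CD248 (0.0590) and C1QB (0.0537), and only the 2 ages those of ACTC1 (0.0537) and C1QB (0.0778), which was also lost with the stricter filter (0.0509) and without signal recognition particle RNA (0.0518).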

Other observations

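DLL3, an atypical Notch ligand, was below the filter. It had 3, 12 and 4 counts in the P1 libraries, 3, 0 and 0 at P3, 1, 2 and 0 at P7, and 0, 3 and 0 at P28. Of 4609 genes that the table leaves without a name, 283 had a symbol in the gene name table used here, and 1 of these was FLT3LG, the ligand of FLT3, a growth factor of blood progenitors. It was not counted among the 30 genes. It was read at 1370 ± 106 CPM at P1, 1304 ± 130 at P3, 1064 ± 124 at P7 and 1698 ± 24.6 at P28 (SD, n = 3), with a log2 fold change between P1 and P28 of 0.31 (edgeR, adjusted p = 0.109). Its span overlaps small nucleolar RNAs and the genes PIH1D1 and ALDH16A1, so these reads may not be its own.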
